A study of Homo sapiens with 12 samples.

Results

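Nascent transcription in U2OS-AsiSI cells was compared with that in U2OS cells, both transfected with a control siRNA (siCtrl), in 6 of the 12 libraries of the study. The 6 were chosen by their titles and by the names of their count columns, 3 libraries of each line. U2OS is a human osteosarcoma line, and U2OS-AsiSI is U2OS carrying AsiSI-ER, in which a restriction enzyme, AsiSI, is joined to part of the oestrogen receptor. The U2OS-AsiSI cells had 1 hour of 4-hydroxytamoxifen (OHT), and the labels give no OHT for the U2OS libraries. All 6 were collected 48 hours after transfection and profiled by TT-seq, in which RNA made during a short pulse of 4-thiouridine is captured and sequenced. The other 6 libraries are the same 2 lines with an siRNA against INTS11, the endonuclease subunit of the Integrator complex, in place of siCtrl. The line, the nuclease and OHT differ together, so their parts in any difference cannot be told apart. The labels do not say whether U2OS-AsiSI is 1 clone or whether replicates were separate cultures, so p-values measure only the spread between these libraries.

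AsiSI cuts DNA at the 8-base palindrome GCGATCGC and is held in the cytoplasm by the receptor domain until OHT binds it. Double-strand breaks are known to activate the kinase ATM, which stabilises the transcription factor p53 and can activate NF-kappaB, and transcription next to a break is known to be repressed. OHT also binds oestrogen receptors, and U2OS is known for very low levels of ESR1. These are background, and breaks were not measured in these libraries.

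The sequences below are shown because they place the recognition site at transcription starts of genes described next. Capitals mark the AsiSI site, each sequence runs 5′ to 3′ on the strand of its gene, and the called direction is that of U2OS-AsiSI against U2OS. The first 4 are stretches of RefSeq promoter windows (GRCh38.p14), which can lie at another start of the gene than the one in the count tables; for KLF7 the site is 1264 bases from the latter.
TRIM37, lower, chr17:59106913-59106964, minus strand: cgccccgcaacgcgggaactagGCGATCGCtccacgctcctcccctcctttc
KLF7, lower, chr2:207165981-207166032, minus strand: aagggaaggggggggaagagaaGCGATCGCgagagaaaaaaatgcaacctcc
LAMB1, higher, chr7:108003303-108003354, minus strand: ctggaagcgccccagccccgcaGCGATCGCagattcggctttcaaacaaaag
ERO1A, not called, chr14:52695616-52695667, minus strand: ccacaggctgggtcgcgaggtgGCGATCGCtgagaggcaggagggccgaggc
The next 4 lie in 5′ UTR exons of GENCODE release 29 (GRCh38), at 179, 40, 128 and 56 bases from the gene start in the order given.
ASXL1, lower, chr20:32358498-32358527, plus strand: cgcattccttaGCGATCGCggggcagccgc
KYAT3, lower, chr1:88992902-88992931, minus strand: ccatccattccGCGATCGCggcggacccca
FLVCR2, lower, chr14:75578737-75578766, plus strand: gccttgggacaGCGATCGCcgcgggtggca
RNF8, lower, chr6:37354024-37354053, plus strand: ctgctttcgcaGCGATCGCgagcgtgtggc
The site stood in 73 of 35116 promoter windows of 300 bases (0.208%), and 246 sites were listed from promoter windows and annotated exons together. Sites in introns and between genes were not searched, and whether a listed site was cut is not known from these data.

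Many genes with a listed AsiSI site at a start were lower in U2OS-AsiSI. Of 115 tested protein-coding genes with a site in a RefSeq promoter window or within 1 kb of their start in the count tables, 49 were lower (42.6%) and 15 higher (13%), and 51 were not called. Over all 13812 protein-coding genes tested 19.9% were lower and 21% higher, at an adjusted p under 0.05 in edgeR's quasi-likelihood test. The median log2 difference was -0.13 at the 115 genes and 0.01 over protein-coding genes without a listed site. The 47 genes with the site in a promoter window had a median of -0.12 with 19 lower and 5 higher, and the 68 with it outside a window but within 1 kb of the tables' start had -0.14 with 30 lower and 10 higher. In 16 of the 47 the window belonged to a start over 1 kb from that in the tables. The other 99 genes, all within 1 kb, had 42 lower (42.4%) and 13 higher (13.1%), with a median of -0.14. Where the site lay 1 to 5 kb from the start, 9 of 36 genes were higher and 4 lower, with a median of 0.08. In 90 genes with a site further inside, 24 were lower and 10 higher, with a median of -0.04. Members are not independent of each other, since 11 sites served 22 genes. The 115 genes had a median span of 54.3 kb against 39.3 kb for all protein-coding genes, and longer genes were lower in general. After the median of genes of like span was subtracted, their median was -0.08.

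**Figure D1:**
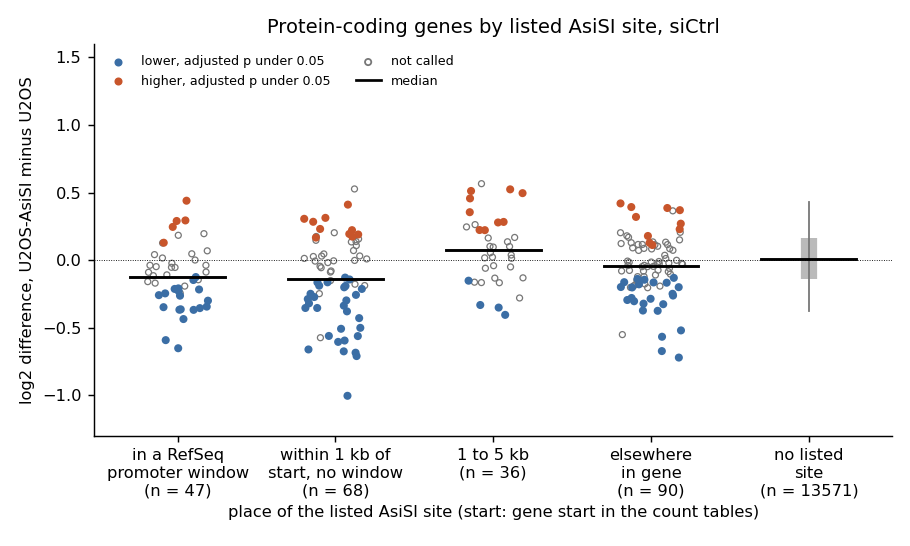
Log2 difference of protein-coding genes (vertical axis, U2OS-AsiSI minus U2OS under siCtrl) by the place of the listed AsiSI site (horizontal axis, with distances from the gene start in the count tables). Points are genes, black lines are medians, and for genes without a listed site the grey bar runs between the quartiles and the thin line the 5th to 95th percentile. Medians were -0.12 and -0.14 in the first 2 classes and 0.08 at 1 to 5 kb.

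ASXL1, a chromatin regulator at chr20:32358330-32439319, was at 352, 344 and 369 CPM (counts scaled to the size of the library) in U2OS and at 245, 232 and 224 in U2OS-AsiSI. The 2 groups lay far apart, with a fold of 0.657 (adjusted p = 2.2e-12). KYAT3, a kynurenine aminotransferase at chr1:88935773-88992953, was at 45, 47.3 and 47.2 CPM in U2OS and at 30.3, 27.2 and 29.4 in U2OS-AsiSI, a fold of 0.622 (adjusted p = 7.91e-12). FLVCR2, a membrane transporter gene at chr14:75578620-75663214, was at 13.5, 14.8 and 13.3 CPM in U2OS and at 7.16, 7.35 and 6.22 in U2OS-AsiSI. Its fold of 0.499 (adjusted p = 6.1e-11) was the lowest of the 115. RNF8, a ubiquitin ligase that acts at DNA breaks, was at 91.6, 90.5 and 92.7 CPM against 64.8, 68.1 and 60.2, a log2 difference of -0.51 (SE 0.046, adjusted p = 3.87e-10). In none of these 4 genes did the lines overlap.

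Among genes with the site in a promoter window, TRIM37, a ubiquitin ligase at chr17:58982638-59106921, was at 276, 285 and 292 CPM in U2OS and 220, 208 and 203 in U2OS-AsiSI. Its log2 difference was -0.44 (SE 0.043, adjusted p = 2.56e-09). C1orf198 was at 121, 110 and 103 CPM against 80.3, 73.4 and 68.2, a log2 difference of -0.59 (SE 0.055, adjusted p = 7.07e-09). SLCO3A1, an organic anion transporter, and KLF7, a transcription factor, had log2 differences of -0.37 and -0.36 with SE 0.043 each. LAMB1, a laminin chain, went the other way, at 85.1, 88.1 and 87.0 CPM in U2OS against 105, 108 and 105, a log2 difference of 0.29. In the 6 siINTS11 libraries, which none of these values use, the line difference had the same sign in ASXL1 (-0.41), KYAT3 (-0.67), FLVCR2 (-0.87), RNF8 (-0.31) and TRIM37 (-0.41). Of the 114 genes tested there 47 were lower and 24 higher, where 25.1% of 14077 protein-coding genes were lower and 24.8% higher.

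Depth in the 6 libraries ran from 28299433 to 38065726 counts, with U2OS replicate 2 the deepest. Of 60583 genes 19935 were tested after a filter on low counts, and levels are given as CPM with TMM scaling. At an adjusted p under 0.05, 6962 genes differed (34.9%), of which 3542 were higher (17.8%) and 3420 lower (17.2%) in U2OS-AsiSI, and 104 differed by at least 2-fold (0.522%), 61 of them higher (0.306%) and 43 lower (0.216%). Higher genes made up 50.9% of calls, but 67.4% when libraries were scaled by their totals alone, and that scaling moved the median of all genes from 0.01 to 0.07. Yeast spike-in counts were not used, so a difference in total nascent RNA was not measured. Some mesenchymal and osteoblast markers were read in both lines: RUNX2, COL1A1, SPARC, VIM and CDH2 had at least 2740 counts in every library. The osteoblast markers SP7, IBSP and BGLAP had at most 9, 12 and 0 counts. COL1A2 and SPP1 had at most 13, TWIST1 7, POSTN 3 and DLX5 1. Of the neural or melanocyte markers, RBFOX3 had at least 8154 counts and MITF at least 4097 in every library. GFAP and SOX10 had at most 15 and 1. The 4 blood markers summed to 0.158 to 0.254 CPM in U2OS and 0.121 to 0.318 in U2OS-AsiSI, with CD3E at 0. INTS11, which siCtrl does not target, was at 9.52, 8.32 and 9.39 CPM in U2OS and 9.08, 10.3 and 9.20 in U2OS-AsiSI, and the groups overlapped (log2 difference 0.08, SE 0.087, adjusted p = 0.513).

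The largest rises, each close to 2-fold, included SPOCD1, N4BP3, MAFF, NFKBIE, CXCL8 and the p53 target FDXR. SPOCD1, at chr1:31790422-31816051, had the largest rise among genes read with at least 100 counts on average in the higher line, from 2.82, 2.52 and 1.41 CPM to 4.96, 5.38 and 4.99 (log2 difference 1.18, SE 0.15, adjusted p = 8.09e-07). MAFF, a small Maf transcription factor, rose from 30.1, 28.5 and 32.7 CPM to 60.2, 59.7 and 67.6 (log2 difference 1.04, SE 0.056, adjusted p = 1.97e-14). Further large rises were those of N4BP3 (1.06), the non-coding AC004585.1 (1.01), ARHGAP25 (1.01) and CBARP (0.99).

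The largest falls included a laminin, a collagen and 2 long non-coding RNAs. LAMA5, which encodes a basement membrane laminin chain, fell from 29.4, 28 and 26.9 CPM in U2OS to 11.9, 13.9 and 11.2 in U2OS-AsiSI (log2 difference -1.18, SE 0.071, adjusted p = 3.59e-14). MIAT, a nuclear non-coding RNA, fell from 22.3, 21.0 and 18.5 CPM to 10.0, 9.97 and 7.97 (log2 difference -1.14, SE 0.083). The pro-apoptotic BCL2 relative BMF and the collagen COL3A1 had log2 differences of -1.03 and -0.88, and the non-coding GAPLINC a fold of 0.499. WNT11, a secreted Wnt ligand, had the lowest value, -1.57 (SE 0.36, adjusted p = 0.013), and lost its call without U2OS-AsiSI replicate 1 or 3 or without U2OS replicate 2. KCNH2, a potassium channel, GLI1, a Hedgehog-responsive transcription factor, CHST7 and ACSM3 had values between -0.85 and -0.90. The unprocessed pseudogene GTF2IP6 (-0.93) resembles other loci, so its reads are uncertain. LAMA5, MIAT, COL3A1, FLVCR2, KYAT3, RNF8, KLF7 and ACSM3 overlap another gene on the same strand, where counting can split or drop reads. This also holds for INTS11, LAMB1, BBC3, ETV5, PCNA and SMAD6, named elsewhere in the text. The list is not complete, since 17933 of 60583 genes overlap another in this way.

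**Figure D2:**
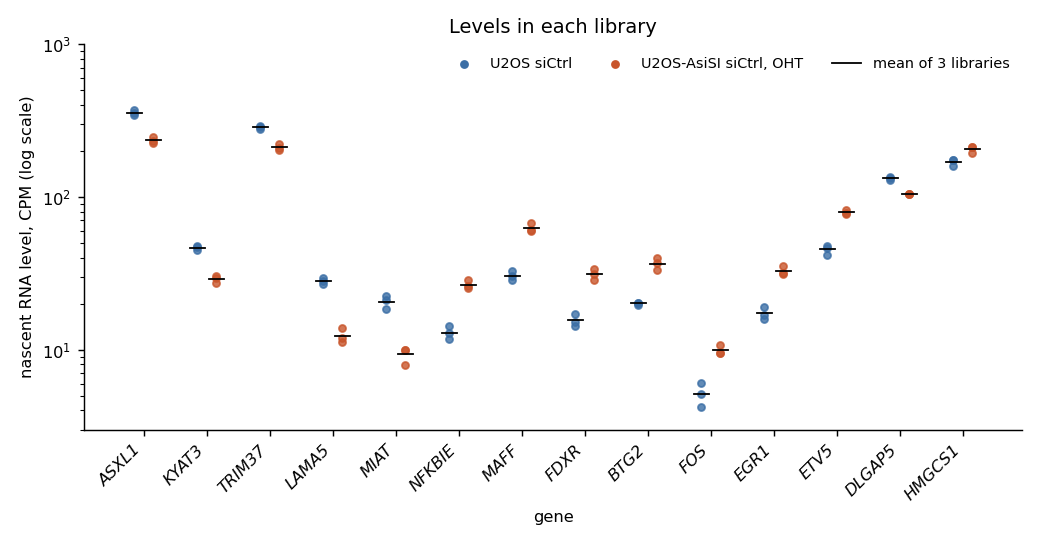
Level of 14 genes in each siCtrl library (vertical axis, CPM on a log scale), with U2OS in blue, U2OS-AsiSI in orange and the mean of 3 libraries as a bar. In every gene drawn the 3 points of one line lie wholly above those of the other.

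NF-kappaB is a family of transcription factors that induces cytokines, survival genes and its own inhibitors. Its target genes were higher in U2OS-AsiSI as a group. Of 22 listed genes 17 were tested, and 15 were higher (88.2%) and 0 lower. Over all protein-coding genes 21% were higher and 19.9% lower, shares that are given beside several lists below. They are not matched for span, and shorter genes were called higher more often. In deciles of protein-coding genes by span, with median spans of 9.58, 15.7 and 23.4 kb, 43.7%, 38.3% and 28.3% were higher. For lists of short genes 21% is therefore too low a share to compare with. The NF-kappaB list had a median span of 11.8 kb. The median log2 difference of the list was 0.64, against 0.01 over all genes. CXCL1, CXCL2, ICAM1, TNF and IL1B had too few counts to test. The list's median was 0.45 after subtracting genes of like span. Its members were read at a median of 0.0254 counts per base, against 0.0177 over all genes tested.

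Among the feedback inhibitors, NFKBIE, which encodes IkappaB epsilon at chr6:44258166-44265788, rose from 14.3, 12.8 and 11.7 CPM to 26, 25.3 and 28.5 (log2 difference 1.04, SE 0.07, adjusted p = 7.77e-13). TNFAIP3, the ubiquitin-editing enzyme A20, rose from 21.5, 20 and 16.3 CPM to 32.0, 31.5 and 34.6 (log2 difference 0.76, SE 0.071). NFKBIA, the classical IkappaB alpha, was at 25.2, 22.1 and 21.6 CPM against 29.9, 29.5 and 32.5 (log2 difference 0.42). In all 3 inhibitors the lines were apart. BCL3, placed in the same group of the list, was not called (0.16). All 3 listed subunits rose, RELB by 0.81, NFKB2 by 0.44 and NFKB1 by 0.24 on the log2 scale. All 6 tested cytokine and chemokine genes were called, CXCL8 at 1.00, CXCL3 at 0.87, CCL2 at 0.66, IL1A at 0.64, IL6 at 0.55 and CCL20 at 0.53. They were low, and CXCL8, a neutrophil chemokine, went only from 2.30, 1.59 and 1.08 CPM to 3.33, 3.06 and 3.56. BIRC3, an inhibitor of apoptosis, rose from 7.32, 5.35 and 5.91 CPM to 11.9, 10.3 and 11.4 (log2 difference 0.87). TRAF1, a signalling adaptor, had 0.96 (SE 0.24, adjusted p = 0.0364) and lost its call without U2OS-AsiSI replicate 1 or 3 or U2OS replicate 3 and when libraries were thinned to equal depth.

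Promoter sequences of 4 of these genes follow, because the kappaB letters recur in the group. Capitals mark matches on either strand to a kappaB-like motif, GGG and TTCC with any 3 bases between them, in RefSeq windows (GRCh38.p14).
NFKBIA, chr14:35404801-35404850, minus strand: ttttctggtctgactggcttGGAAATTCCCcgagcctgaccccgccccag
TNFAIP3, chr6:137867172-137867233, plus strand: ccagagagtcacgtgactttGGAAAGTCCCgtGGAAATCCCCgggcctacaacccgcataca
NFKB2, chr10:102395664-102395704, plus strand: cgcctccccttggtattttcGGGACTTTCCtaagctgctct
BIRC3, chr11:102317265-102317314, plus strand: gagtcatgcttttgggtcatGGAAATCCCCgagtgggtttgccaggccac
These letters stood in the windows of 9 of 14 list members with a window (64.3%) and in 1153 of 11934 tested genes with one (9.66%). A match describes the sequence and does not show binding. The list was chosen as NF-kappaB targets, so this share describes the list and not the line difference.

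Targets of p53, the stress-activated tumour suppressor, were also higher. Of 33 listed genes 30 were tested. Of these 24 were higher (80%, against 21% of protein-coding genes and 38.3% in the 15.7 kb decile of span) and 0 lower. The median log2 difference was 0.30, and 0.27 after subtracting genes of like span. By role, 7 of 10 arrest genes, 7 of 8 apoptosis genes, 5 of 6 feedback genes and 5 of 6 repair or metabolism genes rose. FDXR, mitochondrial ferredoxin reductase at chr17:74862497-74873031, went from 14.3, 15.2 and 17.1 CPM to 33.7, 28.4 and 31.2 (log2 difference 1.00, SE 0.069, adjusted p = 1.87e-12). BBC3, which encodes the pro-apoptotic protein PUMA, went from 20.3, 18.6 and 19.9 CPM to 36.2, 33.5 and 36.7 (log2 difference 0.86, SE 0.059). BTG2, an antiproliferative gene, went from 19.7, 20.2 and 20.3 CPM to 36.8, 33.2 and 39.5, also 0.86. In none of these 3 genes did the lines overlap.

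The best known p53 targets, MDM2 and CDKN1A, had smaller values. MDM2, the ubiquitin ligase that limits p53, was at 134 ± 6.87 CPM in U2OS and 166 ± 11.1 (SD, n = 3) in U2OS-AsiSI (log2 difference 0.30, adjusted p = 8.18e-06). CDKN1A, the cell cycle inhibitor p21, was at 96.5, 79.9 and 92.0 CPM against 106, 97.2 and 111 (log2 difference 0.23, adjusted p = 0.004). The lines were apart in both genes, by less than 1 CPM in CDKN1A. CDKN1A was read at 0.283 counts per base, among the densest protein-coding genes, and whether density bears on its value was not tested. FAS, a death receptor, rose from 23.7, 25 and 25.2 CPM to 39.1, 32.0 and 39.0, and the nucleotide excision repair gene DDB2 from 61.0, 58.9 and 61.9 to 81.0, 79.3 and 82.2. PLK3, a stress kinase, was higher by 0.93. ZMAT3 (-0.002), PPM1D (-0.005), PLK2 (0.09), POLH (0.06), PERP (0.21) and SESN2 (0.36) were not called.

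Immediate early genes are short genes that growth factors and stress induce within minutes without new protein, largely through ERK and the serum response factor SRF. Of 39 listed genes 36 were tested, and 23 were higher (63.9%) and 2 lower (5.56%), with a median of 0.27. The list had a median span of 6.26 kb, and short genes were higher in general. In the shortest decile of protein-coding genes by span 38.7% were higher, and in the next decile 43.7%. The median after subtracting genes of like span was 0.13. Among AP-1 factors 6 of 9 rose and 1 fell. FOS, at chr14:75278826-75282230, went from 6.01, 5.09 and 4.2 CPM to 9.50, 9.50 and 10.8 (log2 difference 0.96, SE 0.1, adjusted p = 1.48e-08). FOSL1 rose by 0.64 and JUNB by 0.52 on the log2 scale, while JUN (-0.05) and JUND (0.09) were not called and FOSL2 fell by 0.24. EGR1, a zinc finger transcription factor at chr5:138465479-138469303, went from 19, 15.9 and 16.8 CPM to 31.4, 31.7 and 35.3 (log2 difference 0.93, SE 0.066, adjusted p = 1.78e-12). The lines did not overlap in FOS or EGR1. The synaptic gene ARC rose by 0.90 and the mRNA decay factor ZFP36 by 0.60. MYC (0.12) and IER3 (0.05) were not called.

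The CArG box, to which SRF binds, is shown in 3 promoters of this list, with the matches in capitals (RefSeq, GRCh38.p14).
EGR1, chr5:138465354-138465425, plus strand: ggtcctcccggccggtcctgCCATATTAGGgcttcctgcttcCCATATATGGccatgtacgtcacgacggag
EGR2, chr10:62816408-62816457, minus strand: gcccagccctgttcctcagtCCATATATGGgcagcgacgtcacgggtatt
SRF, chr6:43171219-43171268, plus strand: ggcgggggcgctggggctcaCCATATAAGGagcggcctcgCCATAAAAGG
A CArG box stood in 3 of 26 list members with a promoter window (11.5%) and in 1.55% of all tested genes with one. TGACGTCA, the cAMP response element, stood in 4 of 26 (15.4%) and in 3.54%. The list was chosen as immediate early genes, so these shares describe the list and not the line difference. EGR2 rose by 0.90 at under 1.3 CPM in each library, and SRF by 0.29.

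Feedback inhibitors of the ERK pathway and several ligands upstream of it were also higher. Of 16 tested MAPK feedback genes 9 were higher (56.2%) and 1 lower (6.25%), with a median of 0.31. Over all protein-coding genes these shares were 21% and 19.9%, and in the 15.7 kb decile of span 38.3% and 4.13%. All 5 Sprouty and Spred genes, which dampen signalling from receptor tyrosine kinases, were higher. SPRY2 went from 9.66, 9.51 and 9.85 CPM to 15.5, 14.3 and 17.2 (log2 difference 0.69), SPRED3 rose by 0.66, and SPRY4 had 1.21 at under 1.1 CPM in each library. The ERK-responsive ETS factor ETV5, at chr3:186046314-186110318, went from 41.9, 46.1 and 47.8 CPM to 78.9, 77.6 and 81.8 (log2 difference 0.81, SE 0.049, adjusted p = 3.59e-14), and ETV4 rose by 0.56. In SPRY2 and ETV5 the lines were far apart. Dual-specificity phosphatases were mixed: DUSP2 (0.73) and DUSP5 (0.40) rose, DUSP10 (-0.24) fell, and DUSP1 (0.03) and DUSP6 (-0.45) were not called. Of 13 tested ligand genes 7 rose and 2 fell, with the EGF-family ligands EREG (0.77), AREG (0.48), HBEGF (0.42) and TGFA (0.35) among the rises and PDGFB (-0.63) and NRG1 (-0.15) the falls. Receptor tyrosine kinases had no common direction, with EPHA2 (0.36) among 3 of 11 higher and FGFR2 (-0.38) and IGF1R (-0.25) among 4 lower. Among the 13 Ras, Raf, MEK and ERK pathway genes 3 were higher and 2 lower, with BRAF (-0.13) among the lower ones.

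**Figure D3:**
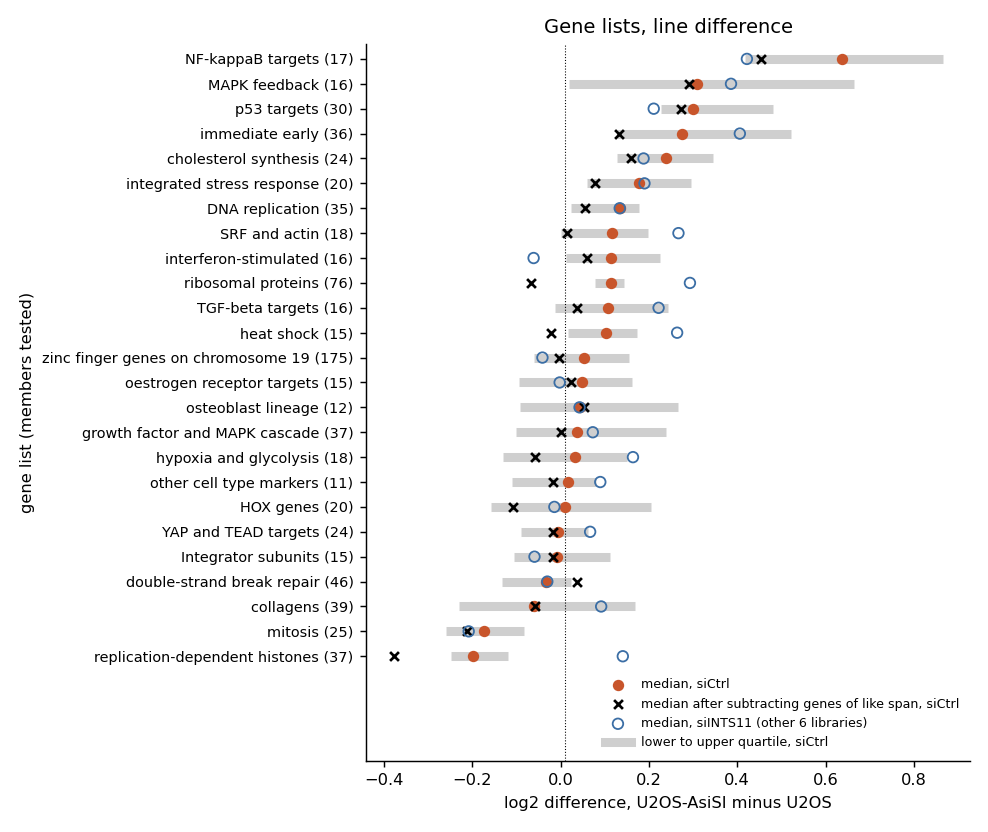
Median log2 difference of each gene list (horizontal axis, U2OS-AsiSI minus U2OS) with the number of members tested in parentheses. Orange points are medians under siCtrl, grey bars the lower to upper quartile, crosses the medians after subtracting genes of like span, open circles the medians in the other 6 libraries, and the dotted line is the median of all genes. NF-kappaB targets lie highest at 0.64 and histones lowest at -0.20.

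Genes of mitosis were lower in U2OS-AsiSI. Of 26 listed genes 25 were tested, and 17 were lower (68%, against 19.9% of protein-coding genes) and 0 higher. The median was -0.17, or -0.21 after subtracting genes of like span. In bulk libraries, fewer cells in a phase of the cycle and less RNA per cell cannot be told apart. Among spindle, kinetochore and chromosome proteins 9 of 12 fell. DLGAP5, a spindle assembly factor at chr14:55148112-55191608, fell from 129, 133 and 134 CPM to 105, 105 and 104 (log2 difference -0.34, SE 0.042, adjusted p = 1.29e-07). The kinetochore motor CENPE fell from 207, 217 and 224 CPM to 184, 171 and 172 (-0.30), and the spindle motor KIF11 from 178, 182 and 186 to 154, 151 and 150 (-0.26). Each of these differences was small, and the lines did not overlap. Among cyclins, kinases and activators 8 of 13 fell, including the checkpoint kinase BUB1 (-0.28), the mitotic phosphatase CDC25C (-0.31), AURKA (-0.18) and CCNB1 (-0.13). CDC20 (0.05), AURKB (0.11), CCNA2 (-0.04), CDK1 (-0.07) and MKI67 (-0.08) were not called. Among list members with a promoter window the CCAAT box stood in 19 of 21 (90.5%, against 42.6% of all tested genes with one). TTTGAA, the core of the cell cycle homology region, stood in 15 of 21 (71.4%, against 14.7%). The list was chosen as mitosis genes, so these shares describe the list and not the line difference. CCNA2, CDK1, AURKB and MKI67, which were not called, held the CCAAT box too.

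DNA replication genes went the opposite way to mitosis genes by a smaller margin. Of 35 tested 18 were higher (51.4%, against 21% of protein-coding genes and 28.3% in the 23.4 kb decile of span) and 3 lower. The median was 0.13, and 0.05 after subtracting genes of like span. The sliding clamp PCNA went from 46.4, 43.5 and 44.7 CPM to 52.9, 50.3 and 58.2 (log2 difference 0.26), and the helicase subunit MCM4 from 57.9, 60.2 and 56.5 to 65.4, 68.7 and 68.6 (0.22). Neither gene overlapped between the lines. All 3 tested G1/S regulators, CCNE1 (0.20), CCNE2 (0.20) and E2F1 (0.19), were higher. The falls were GINS1 (-0.17), PRIM2 (-0.14) and RRM2 (-0.16). Replication-dependent histone genes, which are transcribed in S phase, had a median of -0.20, with 12 of 37 tested lower and 0 higher, and of -0.38 after subtracting genes of like span. Most of these genes are short, with a median span of 0.53 kb, and 27 of the 37 were read at over 0.1 counts per base. H2AC6, at chr6:26124145-26139116, fell from 88.3, 79.1 and 86.2 CPM to 57.4, 57.8 and 63.7 (log2 difference -0.50, adjusted p = 2.69e-09). Its entry spans 14972 bases, far more than the median of the list, and its counts cover that whole span. Histone genes are near-identical copies, so reads of single members are uncertain. In the siINTS11 libraries the histone median was 0.14, with 11 higher against 2 lower, before any subtraction for span. The shortest decile of protein-coding genes by span had a median of 0.30 there. A change of the line difference between the siRNAs was called for 1 of 39 histone genes tested.

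Cholesterol synthesis genes were higher by modest amounts. Of 24 tested 17 rose (70.8%, against 21% of protein-coding genes and 28.3% in the 23.4 kb decile of span) and 1 fell. The median was 0.24, or 0.16 after subtracting genes of like span. MVD, mevalonate diphosphate decarboxylase at chr16:88651935-88663161, went from 15.5, 14.8 and 14.3 CPM to 21.0, 21.6 and 20.9 (log2 difference 0.51, adjusted p = 2.34e-07). HMGCS1, which makes HMG-CoA, went from 175, 159 and 175 CPM to 211, 194 and 213 (0.28). The lines did not overlap in MVD or HMGCS1. Sterol ring enzymes included LSS (0.56), TM7SF2 (0.53) and MSMO1 (0.38), with 8 of 9 higher. Of the regulators, INSIG1 rose by 0.47, while SREBF1 (-0.11) and SREBF2 (-0.06) were not called and SCAP (-0.15) fell.

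OHT is a ligand of oestrogen receptors, but oestrogen receptor genes had no common direction. Of 15 tested 4 were higher (26.7%) and 3 lower (20%), near the 21% and 19.9% of all protein-coding genes, with a median of 0.05. The classical target GREB1 (0.15) and ESR1 itself (0.05) were not called, PDZK1 (-0.76) and ESR2 (-0.63, adjusted p = 0.00825), which encodes oestrogen receptor beta and overlaps another gene on its strand, fell, and XBP1 (0.17) and CCND1 (0.17) rose. Genes of the integrated stress response were higher in 11 of 20 and lower in 1, with a median of 0.18, or 0.08 after subtracting genes of like span, including TRIB3 (0.40), SHMT2 (0.43) and the transporter SLC1A5 (0.36), while its factor ATF4 was not called (0.06). The 16 interferon-stimulated genes tested had a median of 0.115, with 12 above 0. They were read at a median of 0.00307 counts per base, against 0.0177 over all genes tested. Few calls at such low counts do not show that the lines were alike. Only IRF1 was called, from 19.1, 18.1 and 17.1 CPM to 23.6, 24.5 and 26.6 (0.46). IRF1 is also known as an NF-kappaB target.

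Genes that repair or signal double-strand breaks were called lower in 12 of 46 (26.1%) and higher in 5 (10.9%), against 19.9% and 21% of protein-coding genes, with a median of -0.03 and a median span of 71.6 kb. Besides RNF8, the falls included BARD1 (-0.21), CHEK2 (-0.27), TP53BP1 (-0.19) and BRCA1 (-0.18), and the rises included PAXX (0.47), RNF168 (0.21) and NBN (0.16). After subtracting genes of like span the median was 0.04, so its sign turned. Of 15 Integrator subunits 3 were higher and 2 lower, and all 15 lay between -0.18 and 0.23 on the log2 scale.

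In the remaining lists calls were fewer or went both ways. Over all protein-coding genes 21% were higher and 19.9% lower, shares that are not matched for span. YAP and TEAD targets had 4 of 24 higher and 5 lower, and their standard reporters CCN1 (-0.01, adjusted p = 0.938) and CCN2 (0.12, adjusted p = 0.172) overlapped between the lines. TGF-beta targets had 6 of 16 higher and 3 lower, with ID2 (0.41) and SNAI1 (0.40) higher and the inhibitor SMAD6 (-0.22) lower. SRF and actin genes had 7 of 18 higher and 3 lower, with TPM2 (0.31) higher and TPM1 (-0.39) lower. Heat shock genes had 6 of 15 higher and 1 lower, and hypoxia and glycolysis genes 6 of 18 higher and 4 lower. HOX genes had 2 of 20 higher and 3 lower. Zinc finger genes on chromosome 19 had 32 of 175 higher (18.3%) and 20 lower (11.4%). Growth factor and MAPK genes together had 13 of 37 higher (35.1%) and 8 lower (21.6%). Ribosomal protein genes were higher in 20 of 76 (26.3%) and lower in 0, with a median span of 5.47 kb. In the shortest decile of protein-coding genes by span 38.7% were higher. The median of the list was 0.11, which became -0.07 after subtracting genes of like span.

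Matrix and lineage genes had no common direction. Collagen genes were called higher in 10 of 39 (25.6%) and lower in 9 (23.1%), near the 21% and 19.9% of all protein-coding genes, with COL6A3 at 112, 108 and 116 CPM in U2OS against 165, 164 and 165 (log2 difference 0.55) and COL4A5 at 46.2, 50.3 and 54.5 against 36.6, 33.2 and 34.1 (-0.54). RUNX2, the master transcription factor of osteoblasts at chr6:45328157-45664349, fell from 405, 418 and 407 CPM to 317, 309 and 291 (log2 difference -0.42, SE 0.043, adjusted p = 4.51e-09). BMP4 fell by 0.56 on the log2 scale and BMP2 rose by 0.37. Of 12 tested osteoblast genes 3 were higher and 3 lower. Among 11 tested markers of other cell types 3 were higher, FN1 (0.17), THY1 (0.17) and RBFOX3 (0.11), and MITF (-0.29) was lower.

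Gene span went with the line difference across the genome. The shortest decile of protein-coding genes, with a median span of 4.11 kb, had a median log2 difference of 0.20, with 38.7% higher and 1.88% lower. The longest decile, with a median of 325 kb, had -0.14, with 5.43% higher and 48.3% lower. Counts cover introns as well as exons. Read density moved with it less evenly, with medians of -0.06 under 0.01 counts per base, 0.01 from there to 0.1, 0.12 from 0.1 to 0.3 and 0.06 above. Without U2OS replicate 2, which leaves the groups with mean totals of 30561332 in U2OS and 30885042 in U2OS-AsiSI, the shortest and longest deciles had 0.20 and -0.13, and the densest class 0.00. Beyond subtracting genes of like span and leaving out genes over 0.1 counts per base, the part of span or density in a list's value was not tested. Neighbouring genes were compared because 2 lines can differ in copy number. Of 333 windows of 40 genes 0 had a median 0.5 or more from that of all genes, and the medians ran from -0.16 to 0.27. Chromosome medians ran from -0.05 on chromosome 18 to 0.08 on chromosome 19.

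**Figure D4:**
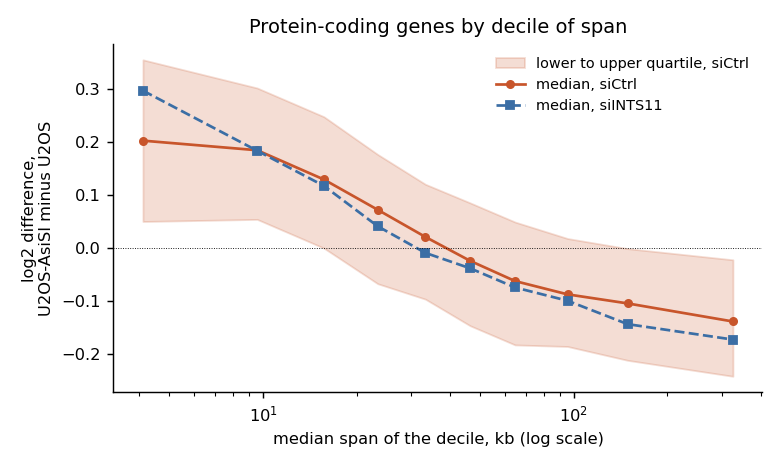
Median log2 difference, U2OS-AsiSI minus U2OS (vertical axis), of protein-coding genes in deciles of span (horizontal axis, median span in kb on a log scale). The orange line and band are the siCtrl median and quartiles, falling from 0.20 to -0.14, and the dashed blue line is the siINTS11 median, falling from 0.30 to -0.17.

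The same line difference was measured in the other 6 libraries, where both lines had siINTS11 and no library is shared with the siCtrl comparison. There 9068 of 20802 genes were called (43.6%), 4624 higher (22.2%) and 4444 lower (21.4%), and 181 at least 2-fold apart (0.87%). Of 6926 genes called under siCtrl and tested under both siRNAs 93.9% had the same sign under siINTS11, against 77.3% of all 19531 genes tested under both. Calls in both numbered 5006, which is 72.3% of the siCtrl calls and 56.6% of the siINTS11 calls. Depth differed more between the lines there, with mean totals of 30628221 in U2OS and 24486291 in U2OS-AsiSI. In that comparison NF-kappaB targets had 12 higher and 1 lower, p53 targets 19 and 4, immediate early genes 31 and 2, MAPK feedback genes 12 and 1, cholesterol genes 15 and 1, and mitosis genes 2 and 19.

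A difference between the siRNAs in the size of the line difference was tested as the interaction of line and siRNA over all 12 libraries. It was called for 832 of 21521 genes (3.87%), 164 higher under siINTS11 (0.762%) and 668 lower (3.1%), a split that turned with the filter on low counts. For 20 genes it was at least 2-fold (0.0929%). With a mean count of at least 50, 67.0% of calls were higher instead of 19.7%, and with no filter 56.6%. The median interaction over all genes moved as well. It was -0.048 in the main fit, 0.016 at a mean count of at least 50 and 0.012 with no filter. Interactions below are not corrected for this median unless stated. Of 31 p53 targets tested 12 had a negative interaction, a line difference lower under siINTS11, and 0 a positive one. In the 5 alternatives 8 to 10 were negative and 0 positive. The median interaction of the p53 list was -0.177, and -0.128 after subtracting that of all genes. FDXR had a line difference of 1.00 under siCtrl and 0.41 under siINTS11, an interaction of -0.63 (SE 0.091, adjusted p = 0.000153). BBC3 went from 0.86 to 0.34, MDM2 from 0.30 to 0.02, FAS from 0.57 to 0.10 and SESN1 from 0.25 to -0.12. CDKN1A (0.23 and 0.28) and PLK3 (0.93 and 0.75) were not called for the interaction. Of 17 NF-kappaB targets TNFAIP3, BIRC3 and BCL3 were called, all lower, with interactions of -0.45, -0.54 and -0.48. Among the 36 immediate early genes 2 were called each way, FOSL2 and CSRNP1 higher and KLF9 and KLF11 lower.

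**Figure D5:**
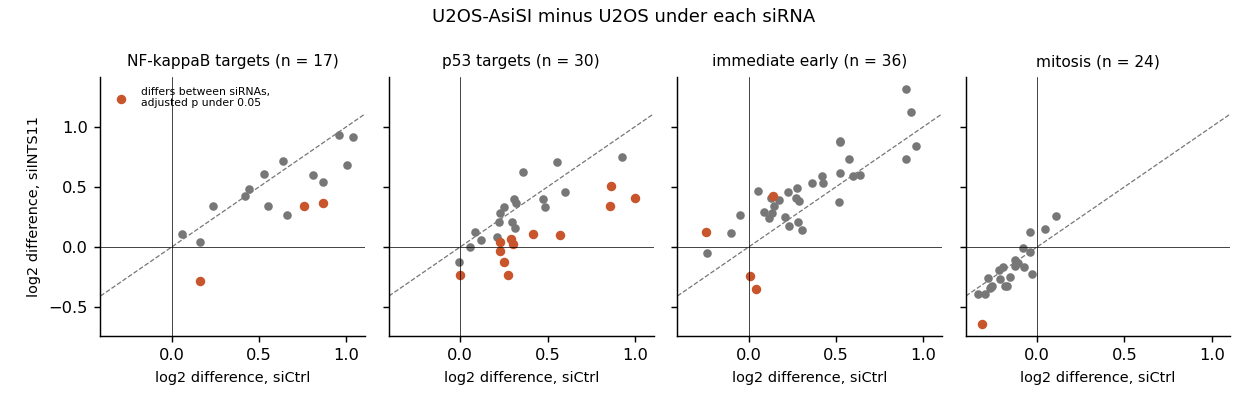
Line difference under siCtrl (horizontal axis) against that under siINTS11 (vertical axis), both log2 U2OS-AsiSI minus U2OS, for members of 4 lists, with the dashed line marking equal values. Orange points were called for the interaction of line and siRNA. They include 12 of the p53 targets and 3 of the NF-kappaB targets, all below the dashed line. Of the immediate early genes 2 were called higher under siINTS11 and 2 lower, and of the mitosis genes 1 lower.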

How the data were processed

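Raw read counts per gene were deposited by the authors in 6 tables of whole numbers, each with a siCtrl or siINTS11 column pair of both lines, and 0 columns were left without a sample. Per the submitters' processing notes the tools included Trimmomatic 0.36, STAR 2.7, deepTools and featureCounts with genome build hg38; their settings are not given in the sources used here. Counts cover the whole gene span, introns included, since length equals span for 60519 of 60583 genes. Of symbols shared with GENCODE 29, 75.1% had the same position. Totals per siCtrl library were 28299433 to 38065726, and replicates differed by more than sampling noise (chi-square per degree of freedom 3.096 and 2.69). Each library was counted as a separate sample. This spread cannot show whether replicates were separate cultures, since library preparation adds to it too. No molecular identifiers were used to count molecules, so errors cover the spread between libraries only.

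Tests across genes used edgeR 4.0.16 under R 4.3.3 (filterByExpr, TMM, robust glmQLFit, glmQLFTest, two-sided) on the 6 libraries compared, with Benjamini-Hochberg adjustment over all genes tested and a threshold of 0.05. SE is the absolute log2 difference over the square root of F. The interaction used all 12 libraries. Lists are described by counts of calls and medians, beside medians minus that of protein-coding genes in the same decile of span. Members and lists were chosen with earlier results of these data known. Named are INTS11, the 8 largest differences each way (and 4 more each way among protein-coding genes) among called genes averaging 100 counts or more in the higher line, without overlap of libraries, up to 4 members per list and per site class with the smallest adjusted p, and fixed examples; other list members were named after their values were seen. AsiSI sites were searched in 35116 RefSeq promoter windows (250 bases before to 50 after the start) and GENCODE exons; a genome sequence was not used here. Some genes are not reported here.

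Alternatives were DESeq2 1.42.0, its size factors in edgeR, scaling by totals only, a stricter filter (mean count 50) or none, the replicate block, all 12 libraries in the fit, thinning to the smallest total, genes under 0.1 counts per base, each library left out, and, chosen after seeing the data, site genes within 1 kb of the tables' start only. On simulated data (19906 genes) 90.91% of 2-fold and 79.17% of 1.5-fold changes were called and 8.79% of calls were false. Only a small set of genes was changed there, each by 1.5-fold or 2-fold, whereas 34.9% were called in the data. These shares therefore do not carry over to the calls above. Figures were drawn with matplotlib 3.10.9.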

Additional observations from a re-analysis of the deposited data

Results flagged for a closer look

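For 27 genes that the text names the line difference itself differed between siCtrl and siINTS11, by edgeR's test of the interaction of line and siRNA over all 12 libraries (adjusted p under 0.05). Values are the line difference under siINTS11 minus that under siCtrl, in log2, and no explanation was tested. The median of this value over all genes was -0.048 and was not subtracted. The p53 list members named were lower: FDXR (-0.63), BBC3 (-0.55), TP53INP1 (-0.54), FAS (-0.50), SESN1 (-0.41), BTG2 (-0.39), DDB2 (-0.34), MDM2 (-0.32) and ZMAT3 (-0.26). NF-kappaB targets were lower at BIRC3 (-0.54), BCL3 (-0.48) and TNFAIP3 (-0.45). Other genes lower were LSS (-0.48), ETV5 (-0.42), KLF9 (-0.42), CDC25C (-0.36), KLF11 (-0.29), RPS27L (-0.31) and RUNX2 (-0.26). Higher were COL3A1 (0.51), LAMA5 (0.40), VLDLR (0.34), FOSL2 (0.34), TPM1 (0.30), H2AC6 (0.27), DUSP5 (0.26) and CSRNP1 (0.25). Of these, RUNX2 lost its call at a mean count of 50 or more and with median-of-ratios size factors, ZMAT3 with those and without a count filter, and DUSP5 with library totals alone and with the replicate block. KLF11 kept its call with the replicate block alone. The other 23 were called in all 5 alternatives, and none of the 27 changed sign.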

How the results depend on the processing

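Of 130 named genes 119 kept their direction and call under each alternative run. Of 1915 values 1879 stayed on their side of the threshold, 35 lost and 1 gained a call, and 0 changed sign. The count of genes at least 2-fold apart under siCtrl, 104, depended on the filter and tool: it was 17 with DESeq2, 17 at a mean count of 50 or more, 195 with no filter, 159 with all 12 libraries in the fit, and 101 to 162 with a library left out (162 without U2OS-AsiSI replicate 2). Under siINTS11 the 181 became 34 at a mean count of 50 or more, 333 with no filter, and 211 to 301 with a library left out (301 without U2OS-AsiSI replicate 1). For the interaction, the alternatives gave 415 lower and 12 at least 2-fold with totals alone, 441 higher, 217 lower and 3 at a mean count of 50 or more, 447 called, 270 lower and 9 with median-of-ratios factors, and 379 higher and 291 lower with no filter. The cause was not tested.

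List medians here are minus the all-gene median. After subtracting genes of like span they were 0.133 for immediate early genes (0.266), 0.16 for cholesterol genes, 0.454 for NF-kappaB targets (0.629), -0.212 for mitosis (-0.181) and -0.084 for AsiSI site genes (-0.138), which had -0.068 at a distance of 5 kb and, chosen after seeing the data, -0.151 in the 99 within 1 kb of the tables' start. MAPK feedback genes had 0.394 at a mean count of 50 or more. Under 0.1 counts per base fewer genes are tested: 13 immediate early genes of 17 and 13 p53 targets of 16 were higher, 9 mitosis genes of 11 lower, and the mitosis median was -0.257. With a library left out, site genes ran from -0.177 to -0.113 and mitosis from -0.207 to -0.149.

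Replicate numbers did not pair the libraries (same-number correlations of deviations -0.15, 0.04 and -0.079 under siCtrl). With the replicate block 6422 genes were called under siCtrl, and the interaction gave 531 called, 103 higher, 428 lower and 13 at least 2-fold.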
